A study of Danio rerio with 2 samples.

Results

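The cells described here, mostly cartilage cells of juvenile zebrafish by their markers, were labelled as in G2 phase or mitosis by a rule on their transcripts. The label names the set as a whole, and how far other genes bear it out is given below. A cell barcode was counted as one of them when the unique molecular identifiers (UMIs, 1 per captured transcript) of ube2c, plk1, cdk1 and cks2 summed to at least 3 and those of the S-phase genes kiaa0101 and rrm2 to at most 2. This rule took 79 of the 4062 barcodes of the series. The series asked how loss of nkx3.2, a homeobox gene known for its part in forming the jaw joint and in holding back cartilage maturation, alters the craniofacial skeleton cell by cell. Head skeleton cells with both fluorescent reporters, sox10:DsRed and fli1a:eGFP, were sorted and made into droplet libraries of transcript 3′ ends. There were 2 libraries: 1 from nkx3.2 el802/el802 mutants, for which the sample labels give 22 days post fertilization (dpf), and 1 from wild-type (WT) fish at 21 dpf. The protocol text gives 21 dpf for both, so genotype and, by the sample labels, 1 day of age cannot be told apart. Both groups carried the same transgenes, Tg(fli1a:EGFP)y1 and Tg(sox10:DsRed)el10. With 1 library per genotype there is no replicate check and no test was run: every interval below is an exact 95% interval for counting error, and the spread between fish or libraries is unknown.

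Cells that have copied their DNA pass through G2 and enter mitosis when the kinase Cdk1, bound to a B- or A-type cyclin and to a Cks subunit, becomes active, with the kinase Plk1 driving spindle assembly and chromosome separation. The anaphase-promoting complex, loaded with ubiquitin by the enzyme Ube2c and aimed by Cdc20, then destroys the cyclins and lets the cell divide. Chondrocytes of growing cartilage divide before they stop cycling and enlarge, and hypertrophic chondrocytes are known as cells that have left the cycle.

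Total depth was 16349558 UMIs over 2005 barcodes in the mutant library (median 7005 per barcode) and 13927936 UMIs over 2057 barcodes in the WT library (median 5781). The libraries shared 4 barcode sequences, none of them among the cells described here. Scrublet called 9 doublets in the mutant library and 3 in the WT library, again none among these cells; so few calls say little about doublets. Transcripts of nkx3.2 itself numbered 35 in the G2 and mitotic cells of the mutant library and 9 in those of the WT library, or 45.6 and 57.7 CPM (the gene's share of the summed UMIs of those cells, on the usual scale), against 41.1 and 45.5 CPM over the other mutant and the other WT barcodes. Where the el802 lesion lies relative to the counted 3′ end is not given in the sources used here, so these counts do not check the genotype.

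Of the 79 cells, 64 came from the mutant library and 15 from the WT library. Most stood close to the threshold. In the mutant library 26 cells held exactly 3 UMIs of the 4 rule genes, 18 held 4, 10 held 5 to 9 and 10 held 10 or more, with a highest sum of 63. In the WT library 6 cells held exactly 3, 6 held 4, 2 held 5 to 9 and 1 held 13. Just outside the threshold, 47 mutant and 24 WT barcodes held 2 UMIs, and 1 mutant and 2 WT barcodes that reached 3 were set aside for their S-phase transcripts. The rule genes chose the cells, so their levels are a description only. The transcript of ube2c carried most of the sums: it was present in 64 of 64 mutant and 12 of 15 WT cells, with 312 and 41 UMIs, and 16 mutant and 7 WT cells held no other rule gene. UMIs of cks2, the Cdk-binding subunit, were found in 34 mutant and 7 WT cells. Those of cdk1 were found in 21 mutant and 3 WT cells, and those of plk1 in 22 mutant cells and 1 WT cell. All 4 rule genes were present together in 9 mutant cells and 0 WT cells. kpna2, which encodes a nuclear import receptor that holds spindle factors and marks the same phase, was not in the rule. It was 1 of 5 markers given for these cells, chosen with earlier results of these data known, so its level too is a description only. UMIs of kpna2 were present in 17 mutant and 5 WT cells, against 18 of 1941 other mutant and 15 of 2042 other WT barcodes.

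**Figure D1:**
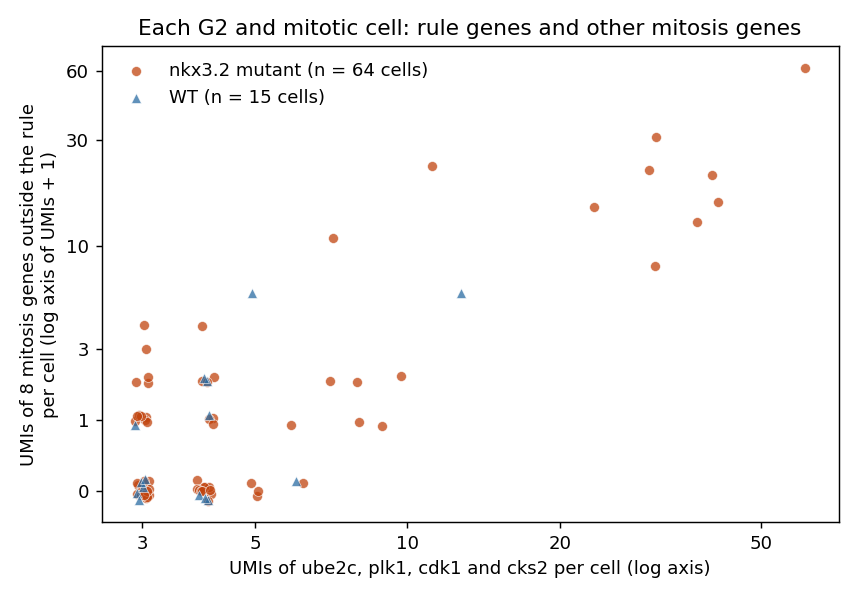
Each point is 1 of the 79 cells, with the UMIs of the 4 rule genes on the horizontal axis and those of 8 G2 and mitosis genes outside the rule on the vertical axis, for the nkx3.2 mutant library and the WT library. Most cells sit at a sum of 3 or 4 with few or no UMIs of the other 8 genes; the cells high on both axes are nearly all from the mutant library, where the highest sum was 63.

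The label was checked with 8 genes that the rule did not use: top2a, which untangles replicated DNA, the spindle proteins tpx2 and nusap1, the proliferation antigen gene mki67, the mitotic cyclin ccnb1, cdc20, the kinase aurka and the chromosomal passenger birc5a. Together they gave 264 UMIs in the mutant cells and 18 in the WT cells, or 344 and 115 CPM, against 5.90 and 5.23 CPM over the other mutant and other WT barcodes. At least 3 UMIs of these genes were held by 13 of 64 mutant cells (20.3%, exact binomial interval 11.3 to 32.2%) and 2 of 15 WT cells (13.3%, 1.66 to 40.5%). Among the other barcodes, 3 of 1941 mutant and 3 of 2042 WT barcodes did so. The other barcodes are shallower, but few deep ones carried these genes either. Between the lower and upper quartile of the depth of the mutant cells, 9744.5 to 13213 UMIs, 286 of 310 other mutant barcodes held none, and between those of the WT cells, 8780.5 to 12275 UMIs, 260 of 275 other WT barcodes held none. Over the whole depth range of the cells it was 1341 of 1413 other mutant and 1624 of 1670 other WT barcodes. Yet 29 of the 64 mutant cells (45.3%) and 9 of the 15 WT cells held none of the 8 genes at all. Cells at a sum of 3 or 4 rarely held 3 or more: 2 of 26 and 1 of 18 in the mutant library and 0 of 6 and 0 of 6 in the WT library. Among mutant cells at a sum of 5 or more it was 10 of 20, and among WT cells 2 of 3.

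The mitotic genes were held by few cells. The 11 cells with 10 or more UMIs of the rule genes, 10 mutant and 1 WT, held 15% of all UMIs of the 79 cells but 97.6% of those of nusap1, 100% of aurka, 91.7% of ccnb3, a B-type cyclin, 85.1% of kif11, the motor that pushes spindle poles apart, and 81.1% of ccnb1. These genes were picked after their values were seen, and the lists as wholes were more mixed. Among genes with at least 20 UMIs in the 79 cells, the median share was 66.5% over 12 mitosis regulators outside the rule (24 to 91.7%), 78.3% over 8 spindle genes (27.2 to 97.6%), 51.2% over 4 kinetochore genes (20 to 84%) and 40.2% over 16 chromatin genes (23.3 to 74.3%), against 12.5% over 17 cartilage matrix genes. Within the chromatin genes the share was 72.5% for mki67, 58.5% for hmgb2a, 44.2% for hmgb2b and 25% for the histone variant gene h2afvb. Outside the lists it was 29.7% for hmgn2, a nucleosome-binding protein, and 22.7% for si:ch73-281n10.2, which the annotation names hmgn1a. For the other 68 cells, taken 1 by 1, the label rests mostly on the rule genes themselves. In the mutant library 14 of 26 cells at a sum of 3 and 11 of 18 at 4 held none of the 8 check genes above. Summed over these 68 cells, 24 mitosis regulators outside the rule, taken with no minimum, still stood above the other barcodes. They held 266 CPM in mutant and 190 CPM in WT cells, from 168 and 29 UMIs, against 43.6 and 53.7 CPM. Depth was not matched in these sums.

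The share of barcodes that met the rule was 3.19% in the mutant library (exact binomial interval 2.47 to 4.06%) and 0.729% in the WT library (0.409 to 1.2%), a ratio of 4.38 (2.47 to 8.27). The rule counts transcripts, and the mutant library was deeper, so depth moves with this result. All barcodes were split into 5 depth classes with the same boundaries in both libraries. The deepest class, above 10666.8 UMIs, held 39 of 510 mutant barcodes (7.65%, 5.49 to 10.3%) and 7 of 303 WT barcodes (2.31%, 0.934 to 4.70%). In the next class 21 of 418 mutant barcodes (5.02%) and 6 of 394 WT barcodes (1.52%) met the rule, and in the 3 shallower classes together 4 mutant and 2 WT barcodes did. Thinning every barcode to 3000 UMIs left 11 of 1832 mutant barcodes (0.600%) and 2 of 1802 WT barcodes (0.111%), a ratio of 5.41 that rests on few cells. The criterion was also changed to at least 3 UMIs of the 8 genes outside the rule, with the limit on kiaa0101 and rrm2 kept. By it 14 mutant barcodes (0.698%) and 4 WT barcodes (0.194%) qualified, a ratio of 3.59. Over the alternatives tried, the ratio of shares ran between 2.92 and 6.84, always higher in the mutant library.

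**Figure D2:**
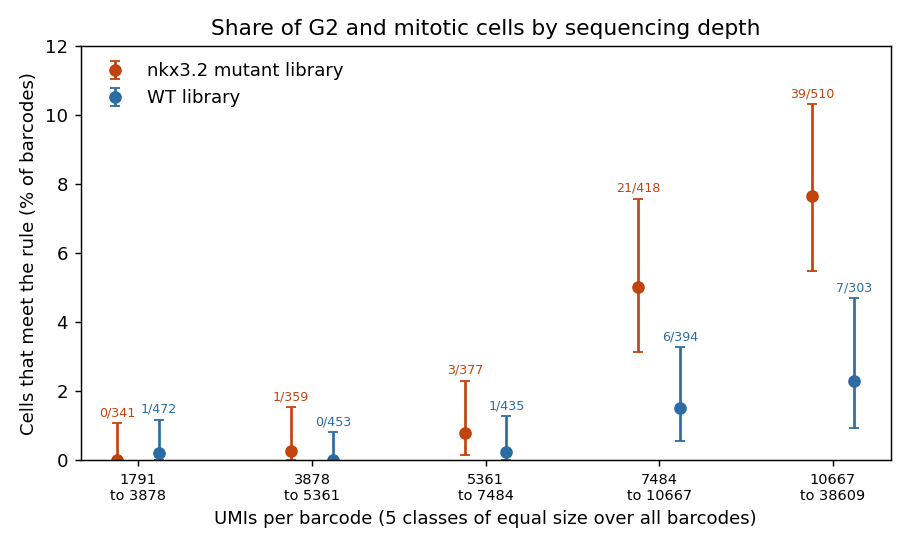
Share of barcodes that met the rule (vertical axis, percent) by class of sequencing depth (horizontal axis, UMIs per barcode) for the nkx3.2 mutant and WT libraries; bars are exact binomial 95% intervals of counting error. Nearly all cells came from the 2 deepest classes, where the mutant share was 5.02% and 7.65% and the WT share 1.52% and 2.31%.

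The share of cells in S phase was close in both libraries. Barcodes outside the described set with at least 3 UMIs of kiaa0101, a clamp-binding replication factor, and rrm2, a subunit of the enzyme that makes deoxynucleotides, numbered 41 in the mutant library (2.04%) and 46 in the WT library (2.24%), a ratio of 0.914 (0.585 to 1.42). Their median depth was 11055 UMIs in the mutant library and 9676.5 in the WT library, close to the 11618 and 10237 UMIs of the mutant and WT cells in G2 and mitosis. The interval of the S-phase ratio lies wholly below that of the G2 and mitosis ratio, but both cover counting error only, and whether 2 further libraries would differ in the same way is unknown.

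Levels along the rule sum are given for genes picked after their values were seen. Within the mutant library, in order of 0, 2, 3, 4, 5 to 9 and 10 or more UMIs of the rule genes, hmgn2 stood at 718, 5113, 5939, 5934, 10184 and 16087 CPM. The homolog si:ch73-281n10.2 stood at 562, 2651, 3239, 3143, 4849 and 5567 CPM, and h2afvb at 125, 670, 685, 667, 1062 and 1451 CPM. These genes were already several-fold above the level of barcodes with no rule transcript in the cells just inside, and in the barcodes just outside, the threshold. Genes of mitosis varied. nusap1 stood at 0.4 CPM at a sum of 0, at 0 CPM at sums of 2, 3 and 4, at 8.1 CPM at 5 to 9 and at 296 CPM at 10 or more. Others were already above their level at a sum of 0 just outside and inside the threshold, though low in CPM: cdc20 stood at 0.9, 17.3, 21.2, 40.0, 32.4 and 274 CPM, mad2l1 at 0.8, 17.3, 17.6, 13.3, 32.4 and 296 CPM, and cdca8 at 1.9, 19.4, 45.9, 22.2, 40.5 and 244 CPM. tp53inp2, whose product is known in autophagy and transcription, stood at 22.8, 84.2, 148, 164, 324 and 637 CPM in the same order. The collagen gene col2a1a stood highest at a sum of 2, with 7561, 12041, 11612, 10966, 8822 and 9180 CPM. In the WT library hmgn2 stood at 976 CPM at a sum of 0, 5752 CPM in the 24 barcodes at 2, 2489 CPM in the 6 cells at 3 and 10140 CPM in the 6 cells at 4, with no steady order, and only 3 cells lay above.

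**Figure D3:**
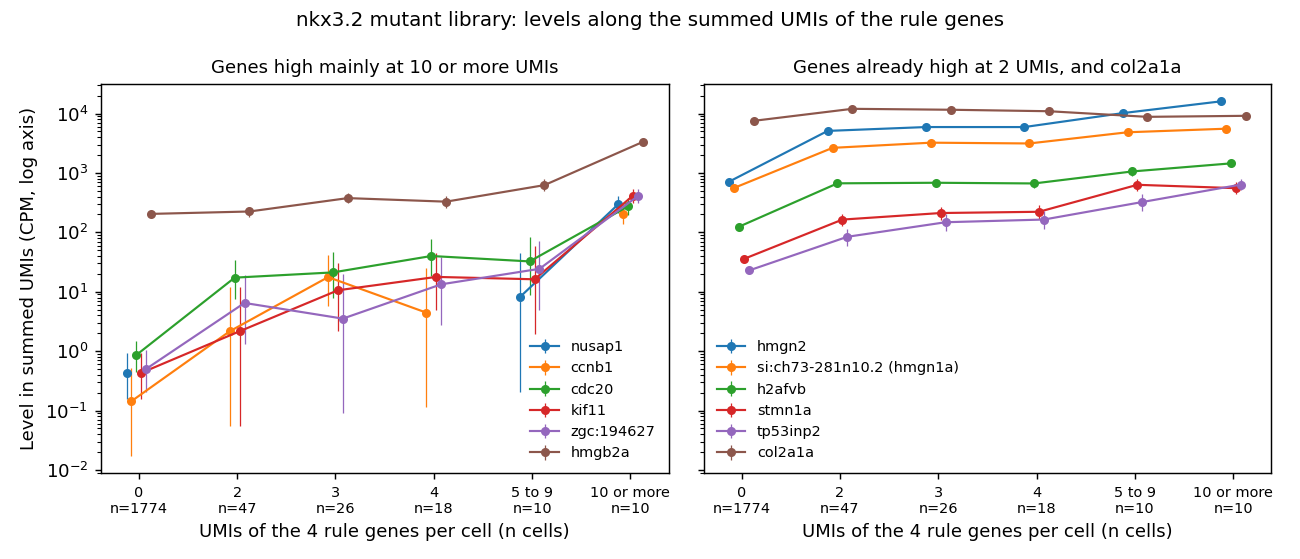
Level in CPM (vertical axis, log scale) of chosen genes in cells of the nkx3.2 mutant library, grouped by the UMIs of the 4 rule genes from 0 to 10 or more (horizontal axis); bars are exact Poisson 95% intervals and a point is left out where a group held no UMI. hmgn2 and h2afvb are already high at 2 to 4 UMIs, nusap1 reaches 296 CPM in the group of 10 or more, and col2a1a stays near the level of the other barcodes.

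Across all genes, 8988 entries had at least 50 UMIs over both libraries and were compared between the 79 cells and the other barcodes. Of these, 117 (1.3%) were at least 2-fold higher in the G2 and mitotic cells of both libraries, each with at least 3 UMIs there, and 106 (1.18%) at least 2-fold lower in both. In the mutant library alone 9.92% were higher and 5.32% lower, and in the WT library alone 5.54% and 2.57%. The cells were deeper than the rest and the calls lean on the scaling: with trimmed-mean (TMM) scaling, which shifted the log2 ratios by 0.30 in the mutant and 0.40 in the WT library, 61 entries were higher and 200 lower. Because the rule used counts of these same cells, these differences describe the cells and do not test them.

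Regulators of mitosis were often higher, in a share close to those of the spindle and kinetochore genes below. Of 13 compared regulators outside the rule, 5 were higher in both libraries, 12 in the mutant library and 5 in the WT library. None was lower, but counts below 3 UMIs were raised to 3, so a gene rare in the other barcodes could not be called lower. No conclusion is drawn from the lack of lower calls. The described cells helped genes reach the minimum: without their UMIs 4 of these 13, 7 of the 9 spindle genes and 2 of the 6 kinetochore genes below would not have been compared. The counts of genes called in these lists therefore describe the cells and give no support to the label. birc5a had 35 UMIs in the mutant cells and 4 in the WT cells, with log2 ratios of 5.77 and 5.47 to the other barcodes of the same library. cdca8, a partner of Aurora B at the centromere, had 56 and 3 UMIs (log2 ratios 4.66 and 3.73), and aurkb, the kinase itself, 25 and 3 UMIs (3.86 and 3.14). The spindle checkpoint gene mad2l1 had 52 UMIs in mutant cells and 3 in WT cells (5.09 and 3.66). cks1b, a second Cdk-binding subunit, had 53 and 8 UMIs (3.65 and 3.11). ccna2, the A-type cyclin of S phase and G2, had 65 UMIs in the mutant cells (84.8 CPM against 1.48 CPM in the others) but 2 in the WT cells, too few for a call there. ccnb1, aurka, top2a and tpx2 fell under the minimum of 50 UMIs over all barcodes and are not in these counts.

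Among spindle proteins and motors, 3 of 9 compared genes were higher in both libraries and 8 in the mutant library. One of the 3 was kpna2, a given marker of these cells. It had 70 UMIs in the mutant cells and 6 in the WT cells, at 91.3 and 38.5 CPM against 1.22 and 1.09 CPM in the other barcodes. dlgap5, which bundles microtubules, had 31 and 3 UMIs (log2 ratios 5.13 and 4.73). stmn1a, a microtubule-destabilizing protein, had 263 and 38 UMIs (2.25 and 1.52), but S-phase cells held more of it, with 1026 CPM in the mutant library and 847 CPM in the WT library against 343 and 244 CPM in the G2 and mitotic cells. kif11 had 65 UMIs in mutant and 2 in WT cells, and aspm, a spindle pole protein, 53 and 1. Of 6 compared kinetochore genes 2 were higher in both libraries, both from the Ndc80 complex that grips microtubules: spc24, with 20 and 5 UMIs (4.50 and 4.40), and spc25, with 16 and 5 UMIs (3.89 and 3.98). Of the tubulins, 0 of 9 were higher in both libraries and 3 in the mutant library. tubb4b, the most abundant, stood at 2145 CPM in mutant and 1963 CPM in WT cells against 951 and 1085 CPM in the others. tuba8l passed 2-fold in the mutant library, with 229 UMIs of which 1 cell held 27.5%, and not in the WT library, with 16.

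Of 20 compared chromatin genes, 4 were higher in both libraries and 13 in the mutant library. Without the UMIs of the described cells 2 of these 20, mki67 among them, would not have been compared. These counts too are a description only. The histone variant gene h2afvb had 671 UMIs in mutant and 134 in WT cells (log2 ratios 2.43 and 1.56). The chromatin-bending proteins hmgb2a, with 708 and 90 UMIs (2.05 and 1.27), and hmgb2b, with 388 and 65 UMIs (2.77 and 1.71), were of this group, as was mki67, with 33 and 7 UMIs (5.22 and 4.63). The paralog h2afva did not pass 2-fold, with 49.6 CPM in mutant and 83.4 CPM in WT cells against 29.5 and 45.7 CPM. The rise was not particular to these cells. S-phase cells held the whole list at 2921 CPM in the mutant and 2988 CPM in the WT library, against 3406 and 2605 CPM here. They held hmgb2a at 768 and 606 CPM, against 923 and 577 CPM. Outside the lists, zgc:194627 had the highest ratios by the library of smaller change, with 62 UMIs in mutant and 4 in WT cells (log2 ratios 6.84 and 6.14), but 1 cell held all 4 of the WT UMIs. It reached the minimum of 50 UMIs only through the described cells, so its rank is a description only. The gene hmgn2 was the most abundant of the 20 most raised: 6447 UMIs in mutant and 1039 in WT cells, or 8408 and 6667 CPM, against 988 and 1223 CPM in the other barcodes, with ratios of 8.51 (8.27 to 8.77) and 5.45 (5.12 to 5.81). It was present in all 79 cells. si:ch73-281n10.2 followed with 3880 CPM in mutant and 2727 CPM in WT cells against 678 and 646 CPM, with ratios of 5.72 (5.49 to 5.96) and 4.22 (3.82 to 4.66). S-phase cells stood between, at 2450 CPM of hmgn2 in the mutant and 2484 CPM in the WT library. tp53inp2 had 205 UMIs in mutant and 22 in WT cells (log2 ratios 3.42 and 3.11) and was nearly missing from S-phase cells, at 2.13 CPM in the mutant and 8.24 CPM in the WT library. pcdh17, a protocadherin gene, had 37 and 4 UMIs (4.23 and 2.26), of which 85.4% lay in the 11 cells of highest rule sum.

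Of 41 compared replication genes, 0 were at least 2-fold higher in both libraries. In the mutant library 7 were higher, where 9.92% of all compared entries were, and 3 were lower. The 7 included pcna, prim2 and rfc5, with ratios of 2.5, 2.80 and 2.05. In the WT library 0 were higher and 0 lower, but counts below 3 UMIs were raised to 3 before each ratio. A gene rare in the other barcodes therefore could not be called lower. For rfc5, with 0 UMIs in WT cells against 21.3 CPM in the other WT barcodes, the log2 ratio was -0.15. No conclusion is drawn from the 0 lower for such genes. The summed level of the list was 544 CPM in mutant and 340 CPM in WT cells, against 422 and 555 CPM in the other barcodes. S-phase cells stood at 4426 CPM in the mutant and 4202 CPM in the WT library. The count leaves out kiaa0101 and rrm2, which the rule capped, and the sums hold them. mcm2 and mcm5, subunits of the replicative helicase, had 1 UMI each in the mutant cells and 0 in the WT cells. pcna, the sliding clamp, had 149 UMIs in mutant and 13 in WT cells, or 194 and 83.4 CPM against 77.6 and 117 CPM, and 970 and 921 CPM in S-phase cells. Of 23 genes of G1 and of cell cycle exit, 0 were higher in both libraries. The most abundant, ccng1, stood at 749 CPM in mutant and 1072 CPM in WT cells against 841 and 1059 CPM, and ccnd1, the D-type cyclin of G1, had 1 UMI in mutant and 0 in WT cells.

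**Figure D4:**
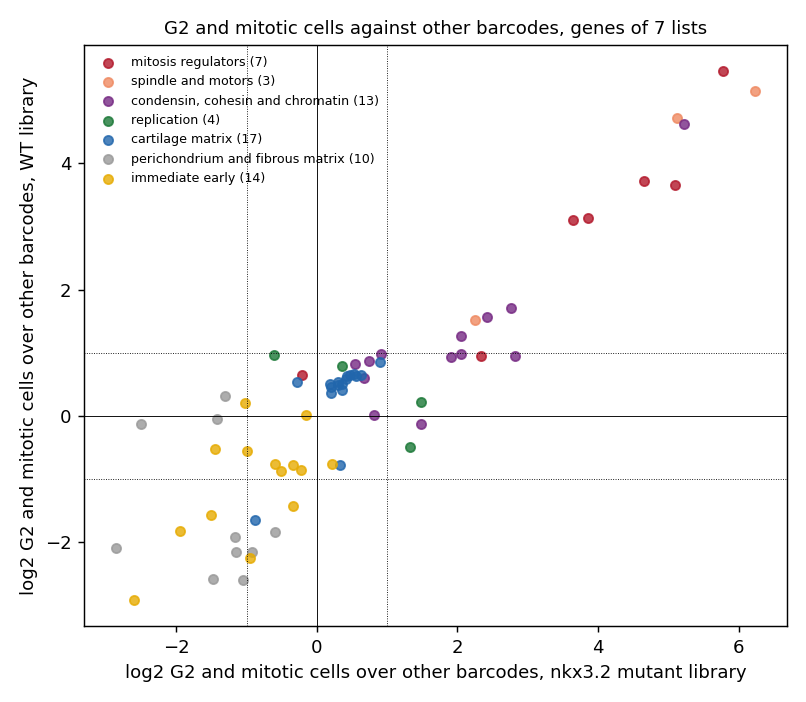
Log2 ratio of the G2 and mitotic cells to the other barcodes in the nkx3.2 mutant library (horizontal axis) and the WT library (vertical axis) for genes of the named lists with at least 3 UMIs in these cells of both libraries. The plotted mitosis and spindle genes sit mostly at the upper right, cartilage matrix genes mostly between 0 and 1, and fibrous matrix and immediate early genes mostly at the lower left. Only 7 of 13 compared mitosis regulators and 3 of 9 spindle genes met the minimum. For a gene rare in the other barcodes, 3 UMIs in the WT cells already give a high ratio, so its position is a description only.

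The cells carried cartilage transcripts at a higher level than the rest. Their median count over the chondrocyte markers was 346 UMIs per cell in the mutant and 567 in the WT library, against 96 and 97 UMIs in the other barcodes. The median share of each cell's UMIs was 3.05 and 4.91% against 1.41 and 1.82%. Summed over the cells of each set, the markers lay closer. They stood at 30150 CPM in mutant and 53975 CPM in WT cells, against 24134 and 37667 CPM in the other barcodes. Connective tissue markers outnumbered chondrocyte markers in 2 of 64 mutant cells (3.13%, 0.381 to 10.8%) and 0 of 15 WT cells, against 287 of 1941 other mutant barcodes (14.8%) and 356 of 2042 other WT barcodes (17.4%). One of those 2 mutant cells was among the 10 with the highest rule sums, and the other 9 of these 10 held more chondrocyte than connective tissue markers. Both were among the 9 mutant cells with at least 10 UMIs of the 8 mitosis genes outside the rule, with 23 and 11 UMIs. The low share over all 64 was thus not seen in that small set. S-phase cells lay near the other barcodes, with 6 of 41 in the mutant and 6 of 46 in the WT library. UMIs of the blood and of the immune markers were 0 in both libraries' cells. Epidermal markers summed to 58.7 CPM in mutant and 32.1 CPM in WT cells, against 176 and 238 CPM in the others, and muscle markers to 23.5 and 25.7 CPM against 10.4 and 36.0 CPM. Of 2 compared muscle markers, ckma, the muscle creatine kinase gene, was higher in both libraries, with 16 UMIs in mutant and 3 in WT cells (ratios to the other barcodes 3.22, 1.77 to 5.49, and 2.71, 0.548 to 8.14). Whether free RNA contributed to these low levels was not tested.

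Of 20 compared cartilage matrix genes none passed 2-fold higher and 1, hapln1a, was lower in both libraries, with 3 UMIs in mutant and 0 in WT cells, but most lay above the other barcodes. col2a1a, the main fibrillar collagen of cartilage, stood at 10546 CPM in mutant and 19666 CPM in WT cells against 7929 and 13175 CPM, ratios of 1.33 (1.30 to 1.36) and 1.49 (1.44 to 1.55). col11a1a, its fibril partner, had ratios of 1.55 (1.5 to 1.6) in the mutant and 1.57 (1.48 to 1.66) in the WT library, and the proteoglycan gene epyc 1.38 and 1.56. matn1, a matrilin of mature cartilage, was nearer to the rest, with 1.15 (1.11 to 1.18) and 1.28 (1.22 to 1.35). Set against other barcodes of the same depth, the log2 ratio of col2a1a was 0.21 in the mutant and 0.24 in the WT library, against 0.41 and 0.58 without this weighting.

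Of the markers of hypertrophic cartilage, col10a1a, mmp13b and spp1 were almost missing, while others were not. col10a1a, the collagen of hypertrophic chondrocytes, had 1 UMI in mutant and 1 in WT cells, or 1.30 and 6.42 CPM, against 336 and 944 CPM in the others. mmp13b, a collagenase, had 0 and 2 UMIs against 78.5 and 349 CPM, and spp1, a mineral-binding protein, 3 and 0 UMIs against 135 and 311 CPM. These were the 3 of 7 compared hypertrophy genes that were lower in both libraries, where 1.18% of all compared entries were. Only 185 of 1941 other mutant and 378 of 2042 other WT barcodes held col10a1a, so most of those lacked it too. S-phase cells stood at 529 CPM of col10a1a in the mutant and 41.2 CPM in the WT library. Values of these 3 genes at matched depth are not given here. ctgfa and the parathyroid hormone receptor gene pth1ra did not pass 2-fold. Their ratios to the other barcodes were 0.862 and 0.910 in the mutant library and 0.506 and 0.767 in the WT library.

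Of 23 genes of perichondrium and fibrous matrix, 6 were lower in both libraries and 0 higher. Over all compared entries 1.18% were lower in both. Depth was not matched in these counts or in those of the stromal genes below. tgm2l, a transglutaminase, stood at 129 CPM in mutant and 122 CPM in WT cells against 285 and 547 CPM. col1a2 had 51 UMIs in mutant and 7 in WT cells, of which single cells held 86.3% and 85.7%. Against only those other barcodes that had more chondrocyte than connective tissue markers, its log2 ratio was 0.74 instead of -1.06 in the mutant library. But col1a2 is itself 1 of the 10 connective tissue markers that chose those barcodes. A lower level of it there was built in, so no conclusion is drawn from this change of sign. Of 5 stromal genes 3 were lower in both libraries: the chemokine genes ccl25b, cxcl12a and cxcl12b.

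Immediate early genes, which respond within minutes to growth signals and to handling, were lower as well. Of 21 compared, 5 were lower in both libraries, where 1.18% of all compared entries were. Their summed levels were 1655 CPM in mutant and 1938 CPM in WT cells against 2800 and 3765 CPM. jun stood at 30 CPM in mutant and 38.5 CPM in WT cells against 181 and 291 CPM, and its partner fosab at 83.5 and 141 CPM against 321 and 499 CPM. The heat shock genes hsp70.2 (6 and 1 UMIs in mutant and WT cells, against 135 and 168 CPM) and hsp70l (4 and 3 UMIs, against 62.8 and 140 CPM) were among the 10 lowest of all compared genes, with angptl7, the keratin gene krt4, icn and ifitm1. Depth moves with these genes: against other barcodes weighted to the same depth, the log2 ratio of jun was -1.58 in the mutant and -2.22 in the WT library (-2.59 and -2.92 unweighted), that of hsp70l -1.28 and -1.10 (-3.59 and -2.86 unweighted), and over all genes 28 instead of 106 stayed 2-fold lower in both libraries. atf4b, a stress-response transcription factor, stood at 142 CPM in mutant and 141 CPM in WT cells against 435 and 750 CPM.

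Between genotypes, 2241 entries with at least 20 UMIs over the 79 cells were compared, mutant over WT. Of these 171 (7.63%) were at least 2-fold higher in the mutant cells and 150 (6.69%) at least 2-fold lower. The same entries in the other barcodes gave 42 (1.87%) and 79 (3.53%). The WT side is 155851 UMIs from 15 cells, so a single cell weighs heavily; TMM scaling, with a shift of -0.27 on the log2 scale, turned the split to 334 higher and 73 lower. Over all 2241 entries the median log2 ratio was 0.08 in these cells and -0.12 in the other barcodes, and 1221 lay above 0.

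The summed level of 24 mitosis regulators outside the rule, taken with no minimum, was higher in the mutant cells than in the WT cells chosen by the same rule: 729 CPM in mutant and 257 CPM in WT cells, from 559 and 40 UMIs (ratio 2.84, 2.06 to 4.02), against 43.6 and 53.7 CPM in the other barcodes. Without the cells of 10 or more rule-gene UMIs the ratio was 1.4 (0.940 to 2.15). Over 28 spindle entries it was 2.48 (1.91 to 3.27), and 1.52 (1.1 to 2.14) without those cells. Over 19 kinetochore entries it was 1.51 (0.946 to 2.55), and 0.837 (0.464 to 1.60) without them, with spc24 and spc25 at 0.813 (0.296 to 2.77) and 0.650 (0.228 to 2.27) over all cells. An excess was not particular to mitosis genes. Over 51 replication entries the ratio was 1.60 (1.19 to 2.18), and 1.59 (1.17 to 2.20) without the cells of 10 or more. Over 26 chromatin entries it was 1.31 (1.18 to 1.46), and 0.900 (0.802 to 1.01) without them. Counts of single genes past the minimum are not given for these lists, since the mutant cells hold 83.1% of the pooled UMIs and a gene can reach the minimum through them alone. ccna2, kif11, cdca8, mad2l1 and si:ch211-69g19.2 reached it in this way, so their ratios are a description only. ccna2 and kif11 each had 65 UMIs in mutant and 2 in WT cells (ratio 6.61, 1.76 to 55.7). cdca8 had 56 and 3 (3.79, 1.23 to 19.0) and mad2l1 52 and 3 (3.52, 1.14 to 17.6). birc5a was less uneven, with 35 and 4 UMIs, or 45.6 CPM in mutant and 25.7 CPM in WT cells. si:ch211-69g19.2, which lies among the most raised genes in both libraries, had 105 and 5 UMIs (4.27, 1.77 to 13.4). Without the cells of 10 or more, the log2 ratio was -0.46 for kif11 and -0.050 for mad2l1, and also below 0 for top2a (-0.63) and kpna2 (-0.73), but it was 0.54 for ccna2, 0.89 for cdca8 and 1.22 for si:ch211-69g19.2. The rule genes themselves showed the same unevenness, with plk1 and cdk1 at 70 and 68 UMIs in mutant and 2 and 3 in WT cells, but cks2 at 85 and 20 UMIs, or 111 and 128 CPM. hmgn2 and h2afvb differed little, by 0.33 and 0.03 on the log2 scale, and mki67 by -0.06.

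Cartilage matrix genes were lower in the mutant cells, in nearly the same measure as over the whole library. The median log2 ratio of 17 compared genes was -0.75 in these cells and -0.65 in the other barcodes; 1 of 17 lay above 0 and 0 passed 2-fold. col2a1a had a ratio of 0.536 (0.514 to 0.559) in these cells and 0.602 in the others, col9a3 0.541 (0.507 to 0.578) and 0.670, and matn1 0.568 (0.537 to 0.600) and 0.635. epyc was less uneven, with 0.812 (0.730 to 0.903) and 0.916, and acana, the aggrecan core protein, was at 179 CPM in mutant and 180 CPM in WT cells. Among the transcription factors of cartilage, sox6 stood at 180 CPM in mutant and 263 CPM in WT cells (0.684, 0.480 to 0.995) and sox5 at 45.6 and 103 CPM (0.445, 0.240 to 0.860). The collagen-folding chaperone gene serpinh1b had 203 CPM in mutant and 539 CPM in WT cells (0.377, 0.288 to 0.498), against 0.404 in the others. Over 20 genes of protein folding in the endoplasmic reticulum, 3 passed 2-fold lower, where 6.69% of all compared entries did. Their median log2 ratio was -0.41, against -0.95 for the same genes in the other barcodes.

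**Figure D5:**
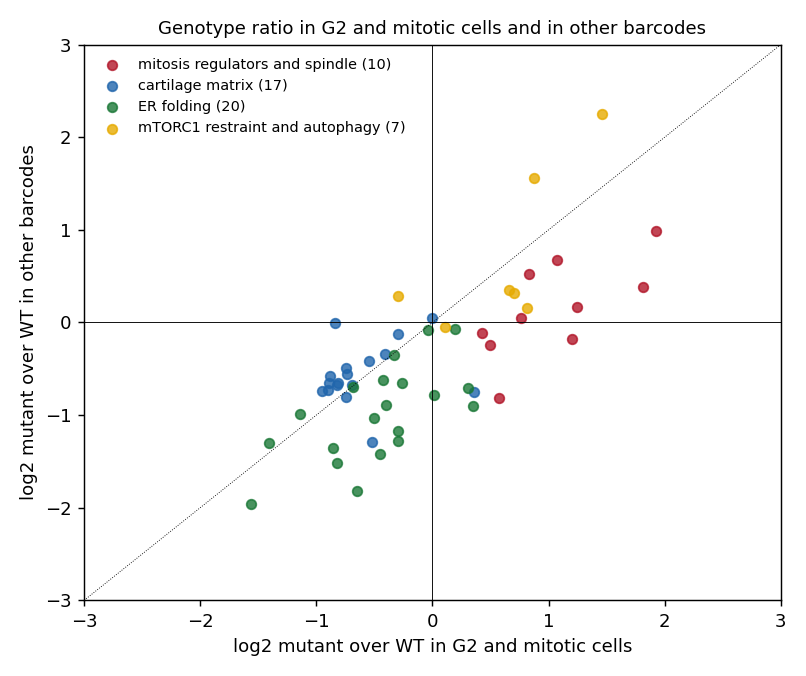
Log2 ratio of the nkx3.2 mutant over WT in the G2 and mitotic cells (horizontal axis) and in the other barcodes (vertical axis) for genes of the named lists with at least 3 UMIs in WT cells; the diagonal marks equal ratios. Cartilage matrix genes lie mostly near the diagonal on the lower left. Mitosis and spindle genes lie to the right of it, but entered with at least 20 UMIs over the 79 cells, which the mutant cells mostly supplied.

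The largest genotype ratios were ranked among genes with at least 100 UMIs over these cells. This minimum left out mitosis genes such as plk1, kif11 and ccna2, with 72, 67 and 67 UMIs, so the ranking cannot place them. The mutant cells hold 83.1% of the pooled UMIs. A gene could pass the minimum through the mutant cells alone, as ctdsp2 and si:ch211-69g19.2 did. These ranks are therefore a description only. Beside si:ch211-69g19.2 and tuba8l, highest in the mutant cells were the phosphatase gene ctdsp2, with 102 UMIs in mutant and 4 in WT cells (ratio 5.18, 1.96 to 19.4), the glutamine synthetase gene glulb with 157 and 9 (3.55, 1.82 to 7.90), eif4ebp3, a translation repressor restrained by mTORC1, with 381 and 23 (3.37, 2.21 to 5.38), and the cytokine signalling inhibitor socs3b with 146 and 9 (3.30, 1.69 to 7.36). The ratio of eif4ebp3 in the other barcodes was alike, at 3.24, while those of ctdsp2, glulb and socs3b were 1.86, 1.25 and 1.35. sesn1, a sestrin that holds back mTORC1, had a ratio of 2.74 (1.34 to 6.52) in these cells and 4.77 in the others. The other 3 of the 10 highest were znf395a, with ratios of 2.76 (1.29 to 7.05) in these cells and 2.69 in the others, si:dkey-262k9.2 with 2.61 (1.49 to 5.01) and 1.34, and steap4 with 2.59 (1.44 to 5.13) and 0.688. For steap4 the log2 ratio was -0.21 with a threshold of 2 UMIs in the rule, and for tuba8l it was -0.29 without the cells of 10 or more. Lowest were f13a1b (0.252, 0.168 to 0.380), cthrc1a (0.282, 0.239 to 0.334), rcn3 (0.352, 0.241 to 0.520) and serpinh1b. One WT cell held 97.8% of the WT transcripts of f13a1b, and without the top cell of each library its log2 ratio turned to 1.12. cthrc1a, a secreted collagen-triple-helix protein, stood at 438 CPM in mutant and 1553 CPM in WT cells, of which 1 WT cell held 31.8%, against a ratio of 0.635 in the other barcodes. The next of the 10 lowest had ratios between 0.42 and 0.462, among them the metalloproteinase inhibitor gene timp2b (0.453, 0.3 to 0.696), against 0.783 in the others, and id1, an inhibitor of basic helix-loop-helix transcription factors (0.462, 0.346 to 0.621), against 0.647.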

How the data were processed

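Per the labels' protocols, sorted cells with both reporters were loaded on a droplet kit for transcript 3′ ends (version 2 chemistry) and counted with Cell Ranger; its version, the genome build and the strand setting are not given in the sources used here. The deposited matrices hold UMI counts per gene and barcode, 35117 entries, of which 4218 share a symbol with another; 2 entries named ube2c and 2 named rrm2 were summed for the rule. No barcode was filtered.

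UMIs were summed over the cells of a set and divided by the set's total to give CPM. Counts below 3 were raised to 3 before taking a log2 ratio, and a gene was called at 2-fold or more, and higher only with at least 3 UMIs. A gene rare in the set it was compared with could therefore not be called lower. Genes needed 50 UMIs over all barcodes for the comparison with other barcodes, and 20 over the 79 cells for that of genotypes. Shares have exact binomial (Clopper-Pearson), sums exact Poisson and ratios exact conditional binomial 95% intervals, for counting error only. Each genotype has 1 library, so no test was run. Simulated counts with a known log2 change of 2 gave a median of 1.99 in the mutant and 1.98 in the WT library, members over others (4764 and 1643 genes), and 2.03 between genotypes (1011 genes). A known 2-fold fall, at the limit of a call, was called in 49%, 52% and 38% of cases in these comparisons. The simulation had no spread between cells and left out genes with few expected UMIs, so it does not cover genes held by few cells.

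The rule, gene lists and markers were chosen with earlier results of these data known. Named genes were the rule genes, nkx3.2, the 20 highest and 10 lowest ratios to other barcodes, ranked by the library with the smaller change, the 10 highest and 10 lowest genotype ratios among genes with at least 100 UMIs in the 79 cells, and up to 5 of the most abundant genes of each list; the genes followed along the rule sum and by share in the cells of highest sum, and acana, atf4b, ccnb3, ccnd1, epyc, fosab, h2afva and hapln1a, were picked after their values were seen. Alternatives were other thresholds, thinning, per-cell means, TMM scaling, other minimums, leaving out the top cell, and other barcodes of like depth or class. Gene symbols are those of the files; the name hmgn1a for si:ch73-281n10.2 came from a reference table, matched by gene ID. Python 3.11.15, numpy 2.4.6, scipy 1.17.1, pandas 2.3.3, Scanpy 1.11.5, matplotlib 3.10.9, R 4.3.3 and edgeR 4.0.16 (TMM factors) were used.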

Additional observations from a re-analysis of the deposited data

Results flagged for a closer look

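Among the named genes, cthrc1a and steap4 differed from the other barcodes in opposite directions in the 2 libraries. The log2 ratio of the G2 and mitotic cells to the other barcodes was -0.55 in the mutant and 0.62 in the WT library for cthrc1a. For steap4 it was 0.94 in the mutant and -0.97 in the WT library, with 153 UMIs in mutant and 12 in WT cells. These differences were not tested, since each genotype has 1 library.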

How the results depend on the processing

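Lowering the threshold to 2 UMIs gave shares of 5.54% in the mutant and 1.90% in the WT library. Raising it to 4 gave 1.90% in the mutant library, and raising it to 5 gave 0.998 and 0.146%. Thinning to 3000 UMIs gave 0.600 and 0.111%, the 8 other genes 0.698 and 0.194%, and barcodes of at least 7500 UMIs, an alternative chosen after seeing the data, 6.49 and 1.87%. The ratio of shares stayed above 1 under each of these. The 117 genes higher than in the other barcodes became 61 with TMM scaling and 38 without each gene's top cell. The 106 lower became 193 at a threshold of 2 UMIs, 53 at 4, 177 with per-cell means, 200 with TMM, 28 at matched depth and 59 against barcodes with more chondrocyte markers (also chosen after seeing the data). Between genotypes the 171 higher became 311 at 2 UMIs, 84 at 4, 334 with TMM and 111 with the gene minimum 2 times higher; the 150 lower became 73 with TMM, 52 with that minimum, 338 with a minimum 2 times lower and 58 without the top cell.

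Single genes turned direction. For mutant over WT, steap4 was -0.21 at a threshold of 2 UMIs, pcna -0.019 with no limit on S-phase genes, zgc:194627 -0.090 with per-cell means and f13a1b 1.12 without the top cell. Without cells of 10 or more rule-gene UMIs, chosen after seeing the data, kpna2 was -0.73, top2a -0.63, kif11 -0.46, mad2l1 -0.050, zgc:194627 -0.83 and tuba8l -0.29. For cells over other barcodes, tuba8l in the mutant library was -0.52 without those cells. In the mutant library col1a2 was 0.48 at matched depth and 0.74 against barcodes with more chondrocyte markers, where col1a1a in the WT library was 0.37. Both genes are among the connective tissue markers that chose those barcodes, so these 0.74 and 0.37 were partly built in. The causes were not tested. Of 3167 values recomputed for 244 results, 2757 stayed close to the main value, 396 moved and 14 turned. For single genes, turning was counted only where the main value was a 2-fold change with an interval clear of no change. For list sums and medians it was counted only where the main value was at least 2-fold. Smaller values could change sign and still count as close or moved. No paired analysis was possible because each genotype has 1 library. The planned search of promoters was not run, as no promoter sequence was used here. The 15 WT cells limit every ratio between genotypes.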
